A study of Sus scrofa domesticus with 4 samples.

Results

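KLF6, KLF2 and KLF4 are members of the Krueppel-like family of zinc finger transcription factors, and they were measured here in anterior pituitaries of pregnant and cyclic pigs. They are 3 of the 3029 genes that could be named on the array, and 13 of its 43603 non-control probes represent them: 4 for KLF6, 2 for KLF2 and 7 for KLF4. Probes were assigned by the RefSeq accession that the array design gives them, looked up in the pig RefSeq annotation. The 3 genes were chosen by their pregnant over cyclic ratios on these arrays, with KLF6 leading, so that ratio is described below and not tested for them. A probe was kept if 4 or more of the 8 channels were well above background, and all 13 were kept. Of these, 10 were well above background in all 8 channels and 3 in 7 of them.

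The samples were anterior pituitaries of 8 gilts (Large White x Polish Landrace), 4 of them in early pregnancy and 4 in the estrous cycle, all taken on days 15 to 16. The pregnant gilts had been bred naturally, and the presence of conceptuses was checked. No other treatment separated the groups, per the labels. Each of 4 two-colour arrays carried RNA of 1 pregnant and 1 cyclic animal. By the label fields, Cy3 marked the pregnant animal on arrays 1 and 3 and the cyclic animal on arrays 2 and 4, with Cy5 on the partner, whereas the text of the labelling protocol names a single orientation of the dyes. The label fields were followed, and the sign of the authors' deposited ratios on each array matches them.

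Krueppel-like factors bind GC-rich sequences in promoters and can activate or repress transcription there. KLF6 is found in many tissues and is induced by injury and by growth signals. KLF2 is a flow-induced factor of vascular endothelium and a factor of lymphocyte quiescence. KLF4 is a factor of epithelial differentiation and of the vessel wall, and one of the classical factors for reprogramming cells to pluripotency. In whole tissue, a change in the number of cells of a type and a change in RNA per cell cannot be told apart.

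The tissue label was checked against its defining genes. All 7 hormone genes (GH1, PRL, POMC, LHB, FSHB, TSHB and CGA) were well above background in all 8 channels. Their summed level was between 19.7 and 20.4 in pregnant animals and between 20.0 and 20.7 in cyclic animals on the log2 intensity scale. Single genes varied more: the log2 ratio of pregnant over cyclic for TSHB was -1.67, 4.48, -3.02 and -4.20 on arrays 1 to 4. For GH1 it was -2.50 on array 3. Among markers of the posterior and intermediate lobes, OXT was also well above background in all 8 channels, at a mean log2 intensity of 12.6. The part of these lobes in the samples was not tested. Between 50.4% and 60.4% of spots were well above background in the pregnant channels and between 52.5% and 66.5% in the cyclic channels, and 0 spots were saturated on each array. Ratios are log2 of pregnant over cyclic after background correction and intensity-dependent normalization (loess) within each array, and their precision is limited by there being 4 arrays. The spread between arrays holds both animal and technical variation.

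KLF6 gave the highest ratios of the 3 genes. In the main processing each of its 4 probes had a higher mean than any KLF2 or KLF4 probe, and 1 of them stood well above the other 3. With background parameters estimated from all spots, the other 3 fell to 0.022, 0.0037 and 0.061. KLF2 probe A_72_P441164 was then at 0.073 and KLF4 probe A_72_P672762 at 0.084, so only the brightest KLF6 probe kept its place. Without array 1, KLF6 probe A_72_P262797 was at 0.0040, below KLF2 probe A_72_P441164 at 0.033. The brightest KLF6 probe, A_72_P607553, stood at 1.07, 0.86, 0.63 and 0.68 on arrays 1 to 4. Its mean was 0.81 ± 0.20 (SD, n = 4 arrays), a 1.75-fold higher signal in the pregnant animals. All 4 arrays lay above 0, and the lowest was at 0.63. Of all 25138 probes tested, 0.227% had a mean ratio at least as high. With 1 array left out in turn, the value stayed between 0.70 and 0.92. It was 0.47 with background parameters estimated from all spots, and 0.041 if the pregnant animal is taken to carry Cy3 on every array, as the protocol text has it. That orientation differs from the label fields and from the sign of the deposited ratios.

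The other 3 KLF6 probes were dimmer and did not repeat that pattern. Probe A_72_P251132 stood at 0.037, 0.94, 0.016 and 0.040 on arrays 1 to 4, with a mean of 0.26 ± 0.45 (SD, n = 4). Array 2 alone was high, and without it the value was 0.033. Probe A_72_P217292 stood at -0.0067, 0.71, -0.032 and 0.34, with a mean of 0.25 ± 0.35, and at 0.16 without array 2. Arrays 2 and 4 of this probe, on which the pregnant animal carried Cy5, were high and arrays 1 and 3 lay near 0. Its dye effect is given below. Probe A_72_P262797 stood at 0.54, -0.084, 0.018 and 0.064, with a mean of 0.13 ± 0.28. Here array 1 alone was high, and without it the value was 0.0040. Its cyclic channel was well above background on 3 of 4 arrays.

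The KLF6 probes therefore gave different answers on the same 4 arrays. Array 2 was the highest in the same pair of dim probes, A_72_P251132 and A_72_P217292, while array 1, the highest of the brightest probe, was near 0 in both of these. The brightest probe exceeded the mean of the other 3 by 0.88, 0.34, 0.63 and 0.53 on arrays 1 to 4, a mean gap of 0.59 ± 0.23 (SD, n = 4). Averaged over all 4 probes, KLF6 stood at 0.41, 0.61, 0.16 and 0.28 on the arrays, and its mean was 0.36 ± 0.19.

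**Figure D1:**
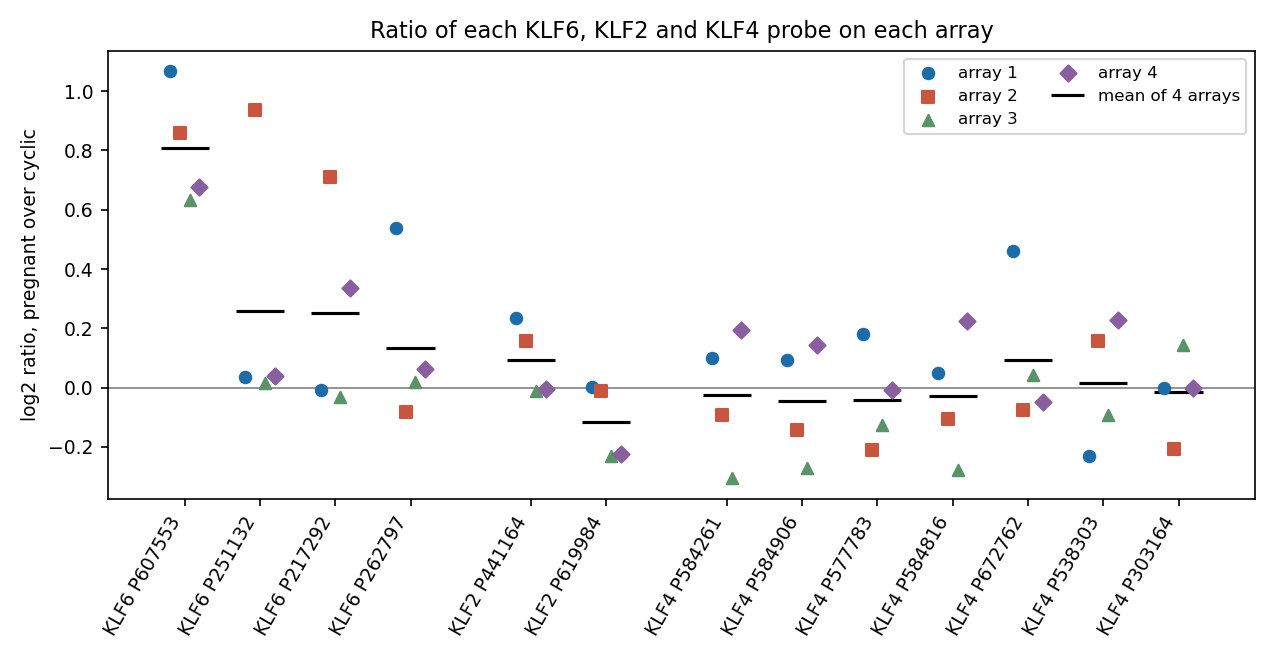
The log2 ratio of pregnant over cyclic (vertical axis) is plotted for each of the 13 probes (horizontal axis, brightest probe of each gene on the left of its group), with 1 symbol per array and a bar for the mean of 4 arrays. The brightest KLF6 probe has all 4 arrays between 0.63 and 1.07, while the KLF2 and KLF4 means lie between -0.12 and 0.09.

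The size of the gap between the KLF6 probes can be set beside the other genes with 4 or more probes kept, 337 in all. The range between the highest and the lowest probe mean was 0.67 for KLF6, against a median of 0.20 over these genes, and 13 of the 337, KLF6 included, had a range at least as large. KLF4, with 7 probes, had a range of 0.14, and 244 of the 337 genes had a range at least as large. KLF6 was chosen by the ratios that make up its range, so its place among these genes is a description and supports nothing.

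**Figure D2:**
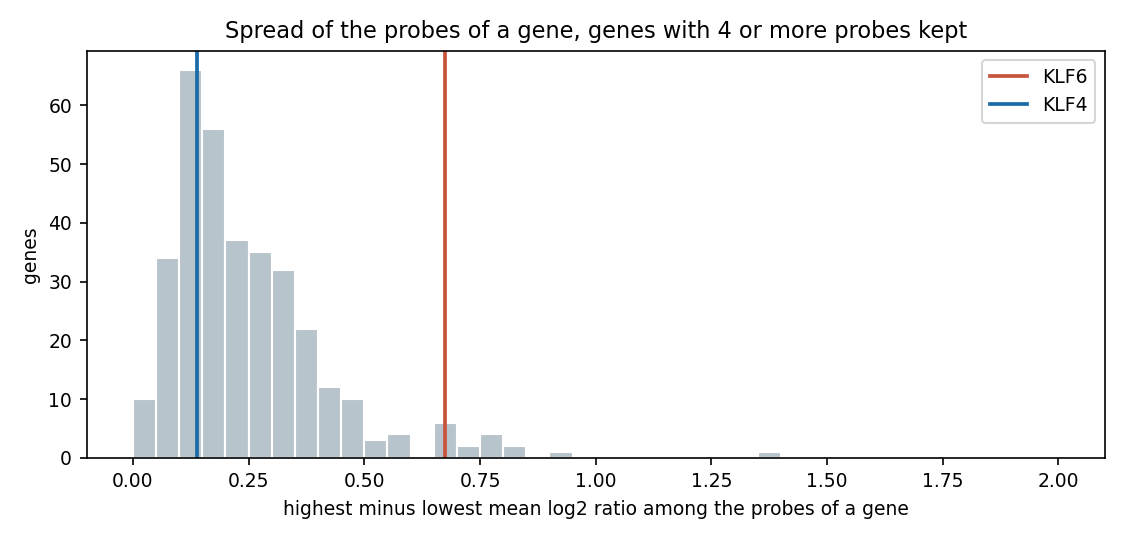
Histogram of the range between the highest and the lowest mean log2 ratio among the probes of a gene (horizontal axis) over the 337 genes with 4 or more probes kept (vertical axis, number of genes). KLF6 lies at 0.67, in the upper tail, and KLF4 at 0.14, below the median of 0.20.

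The gap was then read under other treatments of the background. The 3 dim KLF6 probes had net intensities between 31.5 and 207.5, whereas the brightest had between 373.5 and 1390. With an added constant of 10 in place of 50, the dim probes had means of 0.35 ± 0.62, 0.35 ± 0.49 and 0.22 ± 0.44, and the brightest 0.86 ± 0.21 (SD, n = 4 each). The gap was then 0.55, against 0.59 with the constant of 50, and the KLF6 range was 0.64, with 21 of the 337 genes at least as large. With the scanner software's own processed signals, the dim probes had means of 0.51 ± 0.96, 0.53 ± 0.62 and 0.60 ± 0.68, and the brightest 0.89 ± 0.27. The gap was 0.35 on that scale, which differs from the others in more than the constant. There A_72_P262797 stood above 0 on 4 of 4 arrays, with 1.63 on array 1 and 0.20, 0.29 and 0.30 on arrays 2 to 4. The KLF6 range was then 0.39, and 90 of the 337 genes had one at least as large. The KLF4 range was 0.38 on that scale, so the contrast between KLF6 and KLF4 in probe spread was not seen with the processed signals. The low end of that KLF4 range was the dimmest probe, A_72_P303164, at -0.24 ± 0.44. It stood at -0.86 on array 1, where its pregnant channel was not well above background. The other KLF4 probes had means between -0.030 and 0.13.

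**Figure D3:**
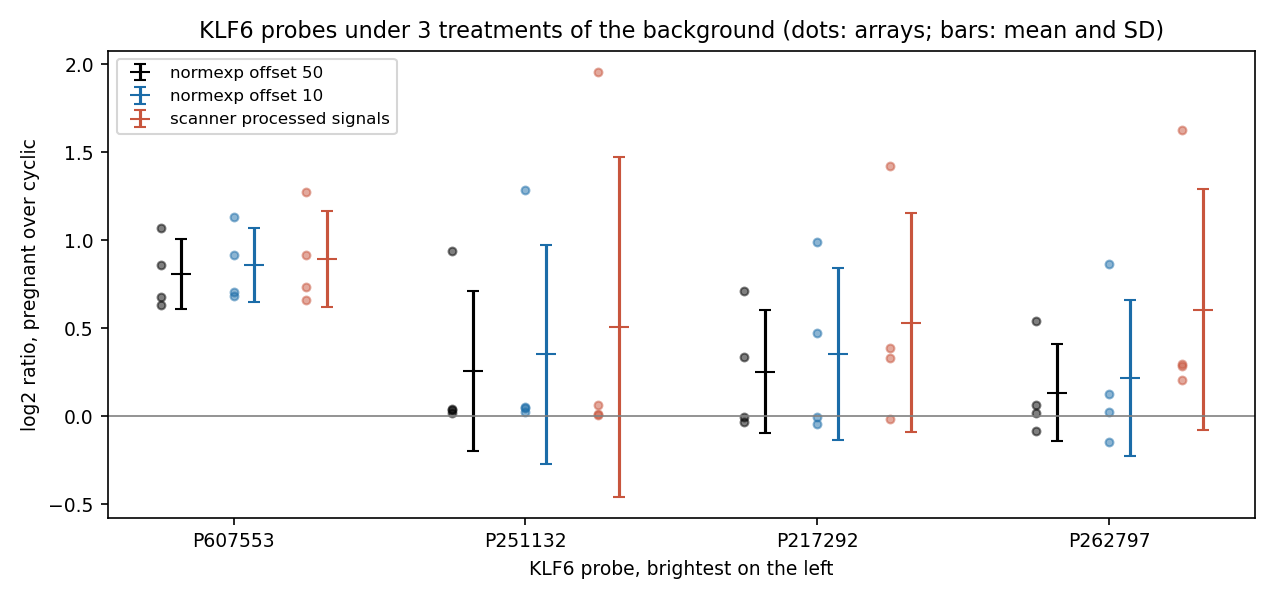
The log2 ratio of pregnant over cyclic (vertical axis) is shown for the 4 KLF6 probes under 3 treatments of the background, with dots for the 4 arrays and bars for mean and SD. The means of the dim probes move from between 0.13 and 0.26 with the constant of 50 to between 0.51 and 0.60 with the processed signals, and with the processed signals a single array stands far above the rest in each of the 3.

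Both channels of the brightest KLF6 probe were then read separately. Its normalized log2 level was 10.9, 10.1, 9.96 and 9.87 in the pregnant animals of arrays 1 to 4, against 9.83, 9.23, 9.33 and 9.19 in the cyclic animals. The group means were 10.2 ± 0.47 in pregnant and 9.39 ± 0.29 in cyclic animals (SD, n = 4 each). The groups did not overlap, but the lowest pregnant animal, at 9.87, and the highest cyclic animal, at 9.83, were neighbours. That highest cyclic animal shared array 1 with the highest pregnant animal. The other 12 probes overlapped between the groups, and 1.08% of all probes had every pregnant level above every cyclic level, while 1.06% had every pregnant level below.

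Before the dye correction the 4 arrays did not share a direction for this probe. Its net intensity was 1321, 1152, 630 and 1166 in the pregnant channels of arrays 1 to 4, against 1390, 565, 758 and 373.5 in the cyclic channels. On the log2 scale, with background corrected, this gave -0.094, 1.03, -0.31 and 1.60. Red exceeded green in general at this brightness, least so on array 2, and the normalization within arrays added 1.16, -0.17, 0.94 and -0.93 to the pregnant over cyclic ratios of arrays 1 to 4. The mean before this step was 0.56 ± 0.91, so the step raised the mean and removed most of the spread. The same step added 1.17, -0.31, 1.03 and -1.08 to the brightest KLF2 probe, whose mean ratio after it was 0.094. That probe was the brighter one, at a mean log2 intensity of 11.6 against 9.79 for the KLF6 probe. With the ratios of each array centred on their median instead of loess, the brightest KLF6 probe had a mean of 0.74. The part of the loess step in the KLF6 ratio was not tested. Spots within 5 rows and columns of the KLF6 spot had median ratios of -0.086, 0.047, -0.054 and 0.096 on arrays 1 to 4 (69 spots). Medians over all features were -0.039, -0.024, -0.014 and 0.022. The KLF6 spot, at 0.63 to 1.07, was chosen for its ratio, so its distance from its neighbours is a description only.

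KLF2 stayed near 0. Its brightest probe, A_72_P441164, stood at 0.23, 0.16, -0.012 and -0.0033 on arrays 1 to 4, with a mean of 0.094 ± 0.12 (SD, n = 4). Arrays 1 and 2 lay slightly above 0 and arrays 3 and 4 just below it. In the pregnant animals its log2 level was 12.1, 11.4, 11.6 and 11.7, against 11.9, 11.2, 11.6 and 11.7 in the cyclic animals. The arrays differed more from each other than the groups did, with array 1 highest and array 2 lowest in both groups. The dimmer probe, A_72_P619984, stood at 0.00097, -0.012, -0.23 and -0.22, with a mean of -0.12 ± 0.13, and its pregnant channel was well above background on 3 of 4 arrays. The KLF2 probes had means of opposite sign, each within 1 SD of 0.

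**Figure D4:**
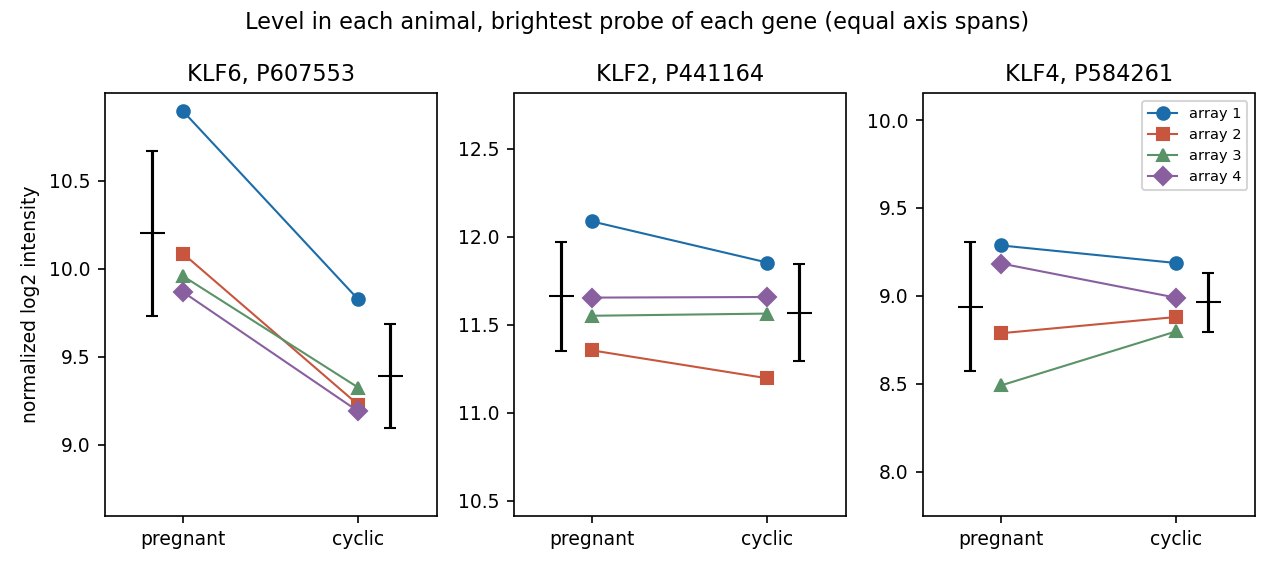
Normalized log2 intensity (vertical axis) of the brightest probe of each gene in pregnant and cyclic animals, with a line joining the animals of 1 array and bars for mean and SD of 4 animals, on axes of equal span. KLF6 is higher at the pregnant end of every line, while the KLF2 and KLF4 lines run nearly level or slope either way.

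KLF4 had the most probes, and its means lay close to 0. Its brightest probe, A_72_P584261, stood at 0.10, -0.092, -0.31 and 0.19 on arrays 1 to 4, with a mean of -0.026 ± 0.22 (SD, n = 4). In the pregnant animals its log2 level was 9.29, 8.79, 8.49 and 9.18, against 9.19, 8.88, 8.80 and 8.99 in the cyclic animals. The 4 brightest KLF4 probes had means between -0.044 and -0.026. They were all above 0 on array 1, between 0.048 and 0.18, and all below 0 on array 2, between -0.21 and -0.092, and on array 3, between -0.31 and -0.13. On array 4 they lay between -0.0097 and 0.22. Over the 8 channels, each 1 animal, the levels of these 4 probes had Pearson correlations between 0.90 and 0.99 in their 6 pairs, as a description of probes that share arrays and normalization.

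The 3 dimmer KLF4 probes were less alike. A_72_P672762 had a mean of 0.095 ± 0.25, with array 1 at 0.46. A_72_P538303 had a mean of 0.016 ± 0.22, from -0.23 on array 1 to 0.23 on array 4. A_72_P303164, whose pregnant channel was well above background on 3 of 4 arrays, had a mean of -0.016 ± 0.14. Over all 7 probes KLF4 stood at 0.093, -0.097, -0.13 and 0.10 on arrays 1 to 4. Arrays 1 and 4 were above 0 and arrays 2 and 3 below it.

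Of the 13 probes, 2 lay above 0 on all 4 arrays, both of KLF6, and 0 lay below 0 on all 4. Over all probes tested, 6.81% lay above 0 and 7.75% below 0 on all 4 arrays. The percentile of the mean ratio among all probes was 99.8 for the brightest KLF6 probe and 93.1, 92.8 and 80.7 for the others. It was 73.9 and 28.0 for the KLF2 probes and between 42.1 and 74.0 for the KLF4 probes. Between genes, probe levels over the 8 channels had a median Pearson correlation of 0.25 for the 8 pairs of KLF6 with KLF2, 0.11 for the 28 pairs of KLF6 with KLF4 and 0.056 for the 14 pairs of KLF2 with KLF4. Within KLF6 the 6 pairs of probes had a median of 0.27, from -0.18 to 0.83, the highest being the pair A_72_P251132 and A_72_P217292.

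The dye effect of each probe does not depend on the contrast that picked the genes, so it was tested. None of the 13 probes had a dye effect at an adjusted p of 0.05 (0 by limma, with adjusted p between 0.490 and 0.998), and 0 were at an unadjusted p under 0.05. Over all probes 0% passed the adjusted and 10.3% the unadjusted threshold. The largest estimate was for KLF6 probe A_72_P217292, at 0.27 ± 0.11 (SE of the limma fit), red over green, and for the brightest KLF6 probe it was -0.041 ± 0.12. Those shares belong to the main processing. They are not given for the other settings, so the values that follow are not read as particular to these probes. With median centring in place of loess, the brightest KLF2 probe had a dye effect of 0.53 (limma adjusted p = 0.0380). The brightest KLF4 probe had 0.47 there (limma unadjusted p = 0.0257, adjusted p = 0.0751). The brightest KLF6 probe then had 0.40 (limma unadjusted p = 0.0311, adjusted p = 0.0852). With background parameters from all spots, the brightest KLF6 probe had -0.32 (limma unadjusted p = 0.0243, adjusted p = 0.538). With an added constant of 10, KLF6 probe A_72_P217292 had 0.38 (limma unadjusted p = 0.0382, adjusted p = 0.447).

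The rest of the family was then examined. Of 23 other Krueppel-like and Sp factors sought, 14 had a probe with a RefSeq symbol and 12 passed the filter, all of them Krueppel-like factors. KLF1, the erythroid factor, and KLF14 were below the filter, well above background in at most 2 and in 0 channels. Of the 12 tested, 5 had an estimate above 0 and 7 below, with a median of -0.19 against -0.018 over all 18852 features, of which 45.7% had an estimate above 0. None was called (0 by limma at an adjusted p of 0.05, lowest adjusted p = 0.647, and 0 at an unadjusted p under 0.05). Over all features 0% passed the adjusted threshold, and 7.21% the unadjusted one.

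KLF16 had the lowest p, with an estimate of -0.23 ± 0.095 (SE). Its arrays 1 and 3 lay at 0.097 and 0.17, and both other arrays, on which the pregnant animal carried Cy5, at -0.59. KLF8 stood at 0.19 ± 0.11 and was above 0 on 4 of 4 arrays, as 6.42% of all features were, while 7.43% were below 0 on all 4. KLF9, which glucocorticoids and thyroid hormone induce, stood at -0.19 ± 0.12 and was below 0 on 4 of 4 arrays, though its pregnant channel was well above background on 1 array of 4. KLF13, a close relative of KLF9, stood at -0.21 ± 0.12, and KLF5, a factor of proliferating epithelia, at -0.26 ± 0.17, with array 2 at -0.83.

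The transforming growth factor beta-inducible pair gave KLF10 at 0.076 ± 0.14 and KLF11 at -0.22 ± 0.17. KLF3, a repressor of the family, had an estimate of 0.12 ± 0.22, with array 1 at 0.84 and array 3 at -0.44, and KLF12, another repressor, at 0.033 ± 0.13. KLF7, the closest relative of KLF6, stood at 0.070 ± 0.096. KLF15, a metabolic and glucocorticoid-induced factor, stood at -0.19 ± 0.14 and KLF17 at -0.21 ± 0.22. For KLF3 and KLF10, 1 of 3 other probes shared the sign of the estimate, and for KLF5 and KLF12 their other probe did not.

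**Figure D5:**
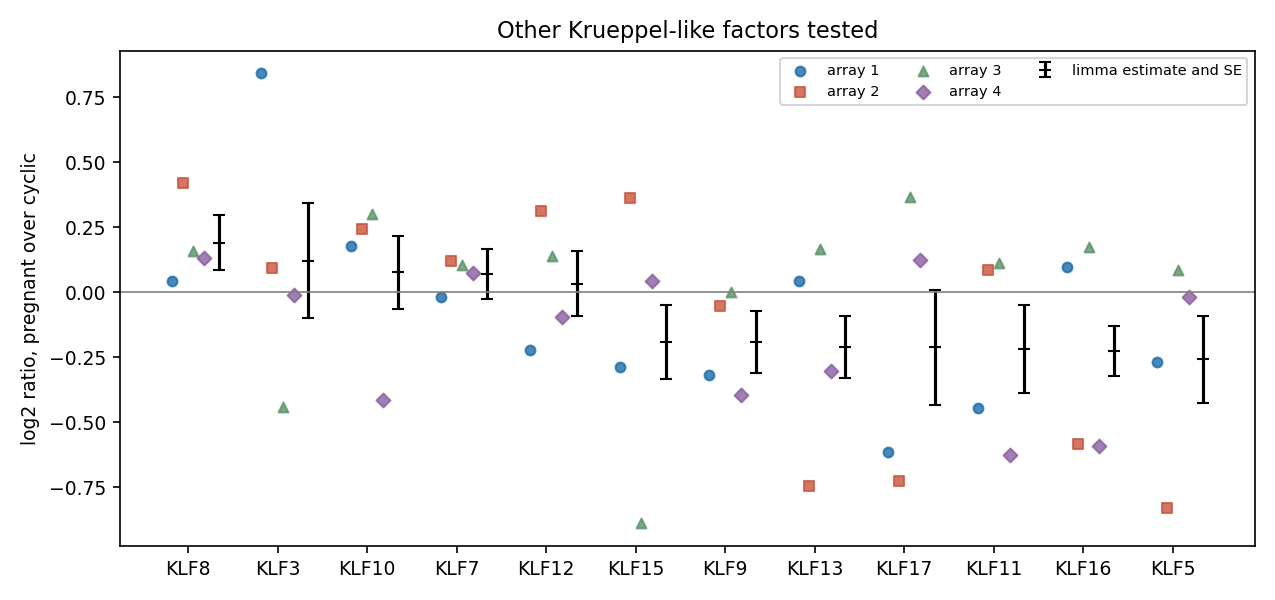
The log2 ratio of pregnant over cyclic (vertical axis) is shown for the 12 other Krueppel-like factors tested (horizontal axis), with 1 symbol per array and the limma estimate with its standard error at the right of each gene. Estimates lie between -0.26 for KLF5 and 0.19 for KLF8, and arrays of most genes fall on both sides of 0.

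Genes around the 3 factors were taken from 7 lists of targets, inducers, partners and co-induced genes, with 97 distinct genes, of which 36 could be tested. A looser call, p below 0.05 before adjustment and a change of 1.2-fold or more, was met by 3 of the 36, or 8.33%, against 7.02% of all features, and 0 passed limma's adjusted threshold. All 3 were higher in pregnant animals, a direction in which 2.93% of all features met the call, while 4.08% met it in the other. That shared direction depended on the processing. With background parameters from all spots the 3 calls were NFKBIA at 0.41, higher in pregnant animals, and ADM at -0.45 and SGK1 at -0.39, both lower, and in the separate channel fit 4 were higher and 3 lower. Over all features the call was met by 483 with those parameters and by 1839 in that fit, against 1323 in the main processing. In the main processing the 3 calls were CCND2, NFKBIA and GADD45A (limma adjusted p = 0.647 for each). CCND2, a G1 cyclin, stood at 0.36 ± 0.11 (SE) and above 0 on 4 of 4 arrays. NFKBIA, the inhibitor of NF-kappa-B, stood at 0.35 ± 0.10 and above 0 on 4 of 4 arrays. GADD45A, a growth arrest and DNA damage gene, stood at 0.44 ± 0.17 with array 3 at -0.40. The 1 other NFKBIA probe had the opposite sign.

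Of 8 KLF6 targets tested, 6 had an estimate above 0 and 2 below, and 0 passed an unadjusted p of 0.05. The list's median was 0.12, with array medians of -0.012, 0.46, -0.14 and 0.10. ENG, the endoglin coreceptor of endothelium, stood at -0.40 ± 0.17 and below 0 on 4 of 4 arrays, and COL1A2, a type I collagen chain, at -0.44 ± 0.21 with array 3 at 0.40. ENG is also among the endothelial markers and COL1A2 among the stroma markers used below.

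Of 6 endothelial targets of KLF2 and KLF4 tested, 1 had an estimate above 0 and 5 below, with a median of -0.12, and 0 passed an unadjusted p of 0.05. NOS3, the endothelial nitric oxide synthase, stood at -0.20 ± 0.11, and VCAM1, an adhesion molecule, at 0.32 ± 0.24 with array 2 at 1.54. Array medians of this list ran from -0.50 on array 3 to 0.45 on array 2. Endothelial markers moved with the arrays in a like manner: of 13 listed 5 were tested, 1 above 0 and 4 below, with array medians of -0.36, 0.23, -0.34 and -0.036. Their summed log2 level was between 12.3 and 12.6 in pregnant and between 12.3 and 13.0 in cyclic animals, and the part of endothelial cells in these values was not tested.

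Of 8 cell cycle and pluripotency genes linked to KLF4, 5 stood above 0 and 3 below, with a median of 0.016. CCND2 was the 1 gene at an unadjusted p under 0.05. Of the inducers of KLF2 and KLF4, 3 of 12 were tested and all had estimates above 0, PDCD10 at 0.21 ± 0.13 and MEF2C, a MADS-box factor that induces KLF2, at 0.20 ± 0.12. The 1 tested co-regulator, the histone deacetylase HDAC3, stood at 0.042 ± 0.095.

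KLF6 and KLF4 are often induced together with immediate-early genes, which gave no common direction between the groups here. Single genes moved far from array to array. FOS stood at 1.22, -1.11, -1.88 and 0.036 on arrays 1 to 4, BTG2 at 1.15, -0.87, -1.10 and 0.58. NR4A3 stood at 1.26, -0.44, -1.16 and 2.95. Not every gene of the list moved this way, with SGK1 at -0.85, 0.50, -1.01 and 0.63. Of 9 tested, 5 stood above 0 and 4 below, with a median of 0.0011 and array medians of 0.39, 0.095, -0.62 and 0.62. GADD45A was the 1 gene at an unadjusted p under 0.05, and SGK1 stood at -0.18 ± 0.099. Of 3 glucocorticoid-induced genes tested 1 was above 0 and 2 below, with NFKBIA and SGK1 again of lowest p and a median of -0.18.

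Genes whose level over the 8 animals was like that of the brightest KLF6 probe were sought among 2403 other features with a symbol. JAK1, a cytokine receptor kinase, had a Pearson correlation of 0.96 over 8 channels (Spearman 0.95), and 0.89 without the 2 animals farthest from the median KLF6 level. NFKBIA followed at 0.92 (0.68 without them), SNRPC, a spliceosomal protein, at 0.92 (0.80) and KMO, a kynurenine pathway enzyme, at 0.91 (0.76). At the other end CLN3, a lysosomal membrane protein, stood at -0.97 and SEC61A1, a translocon subunit, at -0.96. These animals share arrays in pairs, and the correlations hold the group difference of KLF6 itself.

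The same genes had 1 sign on all 4 arrays in the pregnant over cyclic ratio. JAK1 stood at 0.25, 0.16, 0.17 and 0.082 on arrays 1 to 4, with an estimate of 0.17 ± 0.096 (SE, limma adjusted p = 0.654). CLN3 stood at -0.45, -0.50, -0.26 and -0.17, at -0.35 ± 0.11, and SEC61A1 at -0.34, -0.20, -0.32 and -0.21, at -0.27 ± 0.094. They were picked for their likeness to KLF6, which differed between the groups, so their sign is no separate evidence.

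Of the other cell types the tissue could hold, macrophage markers had 7 of 11 listed tested, 2 above 0 and 5 below. The 2 above were AIF1 at 0.38 ± 0.14 (SE), above 0 on 4 of 4 arrays, and C1QA at 0.063. The 5 below were CD163 at -0.37 ± 0.21, CD14 at -0.15, TYROBP at -0.11, C1QC at -0.094 and C1QB at -0.022. TYROBP was below 0 on 4 of 4 arrays. The summed log2 level of the macrophage markers was between 12.9 and 13.7 in pregnant and between 13.0 and 13.7 in cyclic animals. T and B lymphocyte markers had 3 of 10 tested, 2 above 0 and 1 below. CD79A stood at -0.69 ± 0.25 with array 4 at 0.068, CD3E at 0.13 ± 0.097 and CD8A at 0.23 ± 0.11. They summed to between 8.64 and 9.33 in pregnant and between 9.21 and 9.81 in cyclic animals. That sum rested mostly on CD79A, at a mean log2 intensity of 8.64 against 6.69 for CD3E and 6.53 for CD8A. Of the 3 markers, 1 was well above background in all 8 channels. Folliculostellate and stem cell markers had 5 of 10 tested, 2 above 0 and 3 below, and summed to between 15.9 and 16.8 in pregnant and between 16.2 and 16.7 in cyclic animals. Stroma and pericyte markers had 4 of 9 tested, 0 above 0 and 4 below, and summed to between 13.8 and 14.04 in pregnant and between 13.8 and 14.5 in cyclic animals. Posterior and intermediate lobe markers had 2 of 7 tested, 1 above 0 and 1 below, and summed to between 11.8 and 13.2 in pregnant and between 12.3 and 13.3 in cyclic animals. The 1 above was PCSK2, at 1.43, -0.55, -0.82 and 1.56 on arrays 1 to 4, and the 1 below was OXT, at -0.36 ± 0.16. Of the hormone genes 1 had an estimate above 0 and 6 below, with LHB, the luteinizing hormone beta chain, at -0.42 ± 0.15 and below 0 on 4 of 4 arrays. None of the markers passed the adjusted threshold (0 by limma, lowest adjusted p = 0.647), and AIF1, CD79A and LHB were the 3 at an unadjusted p under 0.05. The part of these cell types in the KLF6 values was not tested.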

How the data were processed

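The authors' deposited scanner files give median spot and background intensities for both dyes and the scanner software's processed intensities. Per the file headers, the software was Agilent Feature Extraction, version 10.7.3.1. The deposited value table holds log2 ratios. For all 43553 probes spotted once they equalled log2 of processed red over green within 0.001, with the sign turned on arrays 1 and 3. Its column medians were 0.150, -0.0102, 0.0650 and -0.0726, and how it was centred is not given in the sources used here.

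The work was done in R 4.3.3. Normexp in limma 3.58.1 (offset 50) corrected the background, its parameters estimated without spots marked as outliers. Loess (span 0.3) followed with the 1417 control spots at weight 0, and marked spots were dropped. Aquantile made channel levels comparable between arrays. RefSeq (Sscrofa11.1) gave symbols by accession to 6700 of 43603 probes. The filter kept 25203, of which 25138 had values on all 4 arrays. The brightest probe of each gene represented it, giving 18852 features. The limma model held the ratio and a dye term for each feature, and p-values were adjusted by Benjamini-Hochberg.

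Hormone genes, some other cell type markers, FOS, BTG2 and NR4A3 are named outside the rule that follows. Named were every member probe, every tested family gene, the 2 genes of lowest p in each list and any at an unadjusted p under 0.05, and the 5 features most and 2 least like KLF6. Of the genes this rule names, 2 are not reported here. Members, lists and processing were chosen with earlier results of these data known. The method was tested on simulated data.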

Additional observations from a re-analysis of the deposited data

Results flagged for a closer look

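The ratio of KLF6 probe A_72_P251132 on array 2, at 0.94, stood far from the other 3 arrays, which lay at 0.037, 0.016 and 0.040. Of 51 sets of 4 arrays checked, 39 of them for the member probes, it was the 1 set with a value beyond Dixon's critical limit. Chance alone marks some such sets, at the limit's own error rate of 0.05.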

How the results depend on the processing

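The ratio of the brightest KLF6 probe, 0.81, was 0.47 with background parameters from all spots, 0.36 as the mean of the gene's probes, 0.041 with pregnant in Cy3 on every array, and between 0.70 and 0.92 without 1 array in turn. Its gap to the other KLF6 probes, 0.59, was 0.35 with the processed signals and with the deposited table, 0.16 with pregnant in Cy3 on every array, and between 0.53 and 0.66 without 1 array in turn. Pregnant in Cy3 on every array differs from the label fields and from the sign of the deposited ratios. The brightest KLF2 and KLF4 probes moved by less than 1 SD under every alternative run, and the 10 other member probes did so in 124 of 130 values. These counts overstate stability, because some runs could not move a ratio. Keeping outlier spots, the separate channel fit and leaving out the dye term repeated the main ratios of the member probes. The deposited table repeated the processed signals. The dye effect was called for 0 member probes, and for 1 with median centring, a setting for which the share over all probes is not given.

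Of all features, 0 passed the adjusted threshold, against 2 with offset 10 and 3 in the separate channel fit. The looser call held 1323 of 18852 features, or 7.02%, against 483 with parameters from all spots and between 617 and 2174 without 1 array. It held 1479 with processed signals or the deposited table and 1035 with median centring. In the separate channel fit it held 1839, and with pregnant in Cy3 on every array 1552. The family and pathway counts below are to be read beside these. Of the 1323 calls 41.8% were higher in pregnant, against 29.4% with parameters from all spots, 19.5% with median centring, and between 28.7% and 57.5% without 1 array. Of the other family members 0 met the looser call, against 2 with processed signals or the deposited table (KLF8 and KLF9), 1 with median centring (KLF16), 2 with pregnant in Cy3 on every array (KLF15 and KLF16), and between 0 and 1 without 1 array (KLF3 without array 3, KLF5 without array 4). Of the pathway genes 3 met it, against 1 with processed signals or the deposited table, 0 with median centring, 7 in the separate channel fit, 7 with pregnant in Cy3 on every array, and between 1 and 5 without 1 array. The 1 pathway gene with processed signals or the deposited table was KLF9, which is also in the family count. The cause of these shifts between settings was not tested. Each array's ratio is itself a difference within a pair of 1 pregnant and 1 cyclic animal, so the ratios are already paired. Dim probes near background, among them 3 of KLF6, limit what can be read from them.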
